A study of Mus musculus with 32 samples.

Results

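Nxnl2, Esrrb and Vtn are 3 genes linked to the survival and surroundings of rod photoreceptors, and they were described here as the sighted over control ratio in eye, brain and heart of C3H mice. They were chosen by symbol, as every probe of the array that carries 1 of these names, which gave 1 probe for each gene and 3 of the 9030 named genes on the array. The choice was made with the eye result known, so the eye ratios of the 3 genes are given as a description with no test. Brain and heart values did not enter the choice and were tested.

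Nxnl2 encodes a nucleoredoxin-like protein with a thioredoxin fold, also called rod-derived cone viability factor 2. The related factor of Nxnl1 is secreted by rods and acts on cones through basigin at the cone surface, where it favours glucose uptake. Esrrb encodes an orphan nuclear receptor of the estrogen-related receptor family, which binds DNA without a known natural hormone and is needed for the survival of rods in mice. Vtn encodes vitronectin, an adhesive glycoprotein of plasma and extracellular matrix that binds integrins and the plasminogen activator inhibitor and is made by photoreceptors in the retina. The C3H strain carries the retinal degeneration allele of Pde6b, the rod phosphodiesterase subunit, and loses its rods early in life, while sighted C3H mice lack this defect.

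The arrays were cDNA arrays with 2 colours. Each set total RNA from a whole organ of the sighted C3H line, named seh in the design text, against a pool of the same organ from 6 control males labelled C3H.pde6b-. There were 12 eye arrays, 12 brain arrays and 8 heart arrays. The same control mice gave the brain and heart pools, and other mice gave the eye pool. The age of the animals is not in the labels used here, and no drug or other treatment is named. The control enters as 1 pool per organ, so the spread between control animals is not part of any error given here.

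The 2 arrays of a consecutive pair, which carry opposite dyes, were averaged to 1 replicate, so eye and brain had 6 replicates and heart had 4. Values are log2 ratios, where 1 means a doubling in the sighted RNA and 0 means equal signal. The sign of the ratio is likely, not stated: it was taken from the rod genes, whose median ratio lay between 2.96 and 3.39 on the eye arrays whose sighted RNA carried Cy5 and, as deposited, from -2.96 to -2.06 where it carried Cy3. The share of missing values was between 1.62 and 5.10% on the eye arrays, between 1.015 and 5.05% on the brain arrays and between 5.96 and 61.58% on the heart arrays, so heart values are the least certain. No label ties an array to an animal, and p-values measure only the spread between these replicates.

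All 3 genes were higher in the sighted eye, on 12 of 12 eye arrays each. Nxnl2 had log2 ratios of 5.49, 5.25, 5.22, 5.22, 5.28 and 5.33 in the 6 eye replicates. Their mean was 5.30 ± 0.10 (SD, n = 6), a 39.3-fold higher signal in sighted eye. The replicates of Nxnl2 lay close together, and 8.82% of the genes measured in eye had a smaller SD. By size of the ratio Nxnl2 ranked 5 among the 15877 genes and unnamed probes measured in eye.

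Esrrb had log2 ratios of 5.70, 4.87, 5.47, 5.54, 6.08 and 4.98 in the same eye replicates, with a mean of 5.44 ± 0.46 (SD, n = 6), or 43.4-fold. Replicates 2 and 6 were the low ones and replicate 5 the high one. The spread of Esrrb was wide, with 89.0% of genes having a smaller SD, and its rank was 3.

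Vtn had log2 ratios of 3.94, 3.47, 3.72, 3.35, 3.44 and 3.32, with a mean of 3.54 ± 0.24 (SD, n = 6), or 11.6-fold, and rank 14. Vtn lay below both other genes in 6 of 6 replicates. Nxnl2 and Esrrb could not be ordered, since their replicates overlapped and Nxnl2 was the higher of the pair in 2 of 6. These are ratios of separate probes and not levels, so their order says nothing on which gene had more RNA. Folds and ranks, counted from the highest ratio, rest on the likely sign. With the sign turned the sighted eye would hold 0.0254 of the control signal of Nxnl2, 0.0230 of that of Esrrb and 0.0859 of that of Vtn, and the ranks would count from the lowest ratio. In RNA of a whole eye, fewer cells of a type and less RNA per cell cannot be told apart.

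The size of the ratio moved with the dye, and the direction did not. With sighted RNA in Cy5, Nxnl2 had a lowest, median and highest eye ratio of 5.10, 5.43 and 5.89, against 4.79, 5.17 and 5.34 with sighted RNA in Cy3. For Esrrb the corresponding ratios were 4.98, 5.77 and 6.80 in Cy5 and 3.68, 5.19 and 5.64 in Cy3. For Vtn they were 3.27, 4.21 and 4.44 in Cy5 and 2.48, 2.92 and 3.45 in Cy3. The Cy5 mean exceeded the Cy3 mean by 0.36 for Nxnl2, 0.83 for Esrrb and 1.12 for Vtn. Over all genes in eye the median of this gap was 0.50, with quartiles of 0.34 and 0.67, so the gap of Nxnl2 lay within the quartiles and those of Esrrb and Vtn above them.

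**Figure D1:**
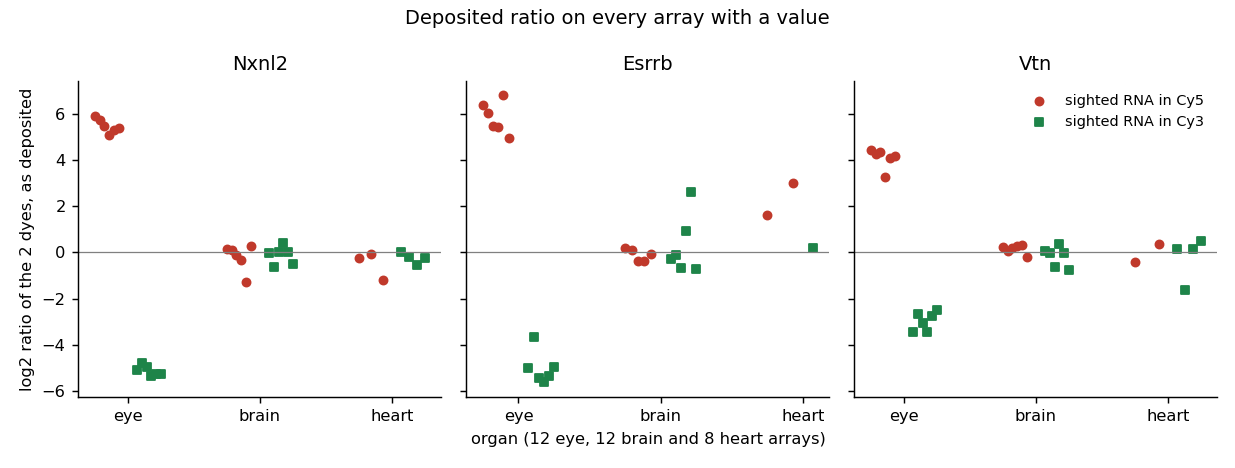
Log2 ratio of the 2 dyes, as deposited, for Nxnl2, Esrrb and Vtn on each array of eye, brain and heart. Each point is 1 array, with the dye of the sighted RNA marked, and no sign was changed. The eye arrays of Nxnl2 lie between 5.10 and 5.89 in Cy5 and between -5.34 and -4.79 in Cy3. Those of Vtn lie between 3.27 and 4.44 in Cy5 and between -3.45 and -2.48 in Cy3.

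The start regions of the 3 genes are shown for the letters upstream of genes that all moved the same way in eye. They are 250 bases before a transcript start, from RefSeq on GRCm38.p6, plus strand, read 5′ to 3′. The windows are chr13:51170775-51171024 for Nxnl2, chr12:86360867-86361116 for the first of 2 annotated starts of Esrrb, and chr11:78498870-78499119 for Vtn. The Vtn window and this Esrrb window end 1 base before the RefSeq gene span. The Nxnl2 window lies inside the gene span, since the start it belongs to is 2319 bases downstream of the 5′ end of the span, which also covers predicted transcripts; which transcript begins there was not determined. Capitals mark GGATTA, the motif bound by the homeodomain factors CRX and OTX2, which drive photoreceptor genes.
Nxnl2: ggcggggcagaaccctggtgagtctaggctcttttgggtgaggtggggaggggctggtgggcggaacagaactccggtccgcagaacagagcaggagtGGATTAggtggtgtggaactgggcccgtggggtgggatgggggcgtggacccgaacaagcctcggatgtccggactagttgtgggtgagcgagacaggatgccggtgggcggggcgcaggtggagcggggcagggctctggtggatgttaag
Esrrb: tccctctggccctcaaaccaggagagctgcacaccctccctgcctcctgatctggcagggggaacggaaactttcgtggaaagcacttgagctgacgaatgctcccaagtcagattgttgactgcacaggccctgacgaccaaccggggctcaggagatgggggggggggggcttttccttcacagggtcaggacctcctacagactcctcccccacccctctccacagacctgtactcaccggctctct
Vtn: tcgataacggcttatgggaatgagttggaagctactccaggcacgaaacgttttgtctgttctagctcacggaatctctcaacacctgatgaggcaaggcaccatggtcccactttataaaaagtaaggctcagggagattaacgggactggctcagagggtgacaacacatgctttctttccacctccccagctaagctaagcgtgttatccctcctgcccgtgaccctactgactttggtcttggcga

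The window of Nxnl2 held 1 match to GGATTA, on the plus strand 152 bases before that transcript start and thus within the gene span, and no other match on either strand to the motifs searched. Besides this motif the search covered AAGGTCA, to which estrogen-related receptors bind. The last motif was TGCTGA, part of the sites bound by NRL and other large MAF factors. The window of Vtn and both windows of Esrrb held 0 matches to them. Among 32851 mouse windows of the same length, 6.25% held the CRX and OTX2 motif, 4.08% that of the estrogen-related receptors and 16.1% that of the MAF factors. A match of this kind is a match of letters and not a binding site.

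In brain the ratios of the 3 genes scattered around 0, and 0 of 3 passed the limma test, against 0.00621% of the 16114 genes tested in brain. Also 0 of 3 had an unadjusted limma p below 0.05, against 663 of the 16114. Nxnl2 had brain ratios of 0.089, 0.371, -0.064, -0.38, -0.66 and 0.395, with a mean of -0.042 ± 0.42 (SD, n = 6). Its replicates fell on both sides of 0, and the mean was 0.03 without replicate 4 and 0.08 without replicate 5. The 95% interval ran from -0.37 to 0.29 and the limma p adjusted over all genes was 0.982.

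Esrrb had brain ratios of 0.241, 0.12, 0.167, -0.642 and 0.34, with replicate 5 missing because 1 of its arrays had no value. The mean was 0.045 ± 0.39 (SD, n = 5), with a 95% interval from -0.30 to 0.39 and an adjusted limma p of 0.979. It was -0.0039 without replicate 1 and -0.03 without replicate 6. The array that remained of replicate 5 read -2.60 after the turn for its dye, the lowest brain value of the gene.

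Vtn had brain ratios of 0.08, 0.04, 0.419, -0.052, 0.163 and 0.2825, higher in 5 of 6 replicates. The mean was 0.16 ± 0.17 (SD, n = 6), with a 95% interval from -0.015 to 0.33. The unadjusted limma p was 0.0682 and the adjusted p 0.959. All 3 intervals in brain end below 0.40. The lowest eye replicate of any of the genes was 3.32, in a contrast that was known when they were chosen.

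In heart only Nxnl2 had enough replicates for the test, and 0 of 1 gene passed, against 0% of the 12796 tested in heart; 1021 of those had an unadjusted p below 0.05. Nxnl2 had heart ratios of -0.13, 0.066 and -0.32 in replicates 1 to 3, with a mean of -0.13 ± 0.19 (SD, n = 3). The 95% interval ran from -0.58 to 0.32 and the adjusted limma p was 0.796. The interval is wider than in brain, and a p that misses the threshold does not show equal RNA in sighted and control heart.

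Esrrb had both arrays of a pair in heart in replicate 3 only, at 1.40, and Vtn in replicates 2 and 3, at 0.61 and 0.11. They were not tested there. The 3 heart arrays with a value for Esrrb read 1.63 and 2.985 with sighted RNA in Cy5 and -0.184 with sighted RNA in Cy3, so the arrays did not share a direction. The mean of Vtn was 0.36 ± 0.35 (SD, n = 2), but only 2 of its 6 heart arrays were above 0. As sighted over control, the arrays of replicate 2 read -0.419 and 1.643, and those of replicate 3 read 0.369 and -0.142. The unpaired arrays of Vtn read -0.165 and -0.512, so its arrays did not share a direction either. The control pools of brain and heart came from the same mice, and the brain and heart ratios of Nxnl2 differed by 0.089, with a standard error of 0.24, a 95% interval from -0.44 to 0.62 and an adjusted limma p of 0.88. Without heart replicate 3 the difference was -0.0075. In that test 0 of 12729 genes passed, 0%, and 2159 had an unadjusted p below 0.05; without heart replicate 1, 184 passed. For each gene every eye replicate lay above every brain and heart replicate, where the heart side of Esrrb is 1 replicate. Since the genes were chosen with the eye result known, this is a description and no test. Brain and heart stood in no order that their spread supports.

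**Figure D2:**
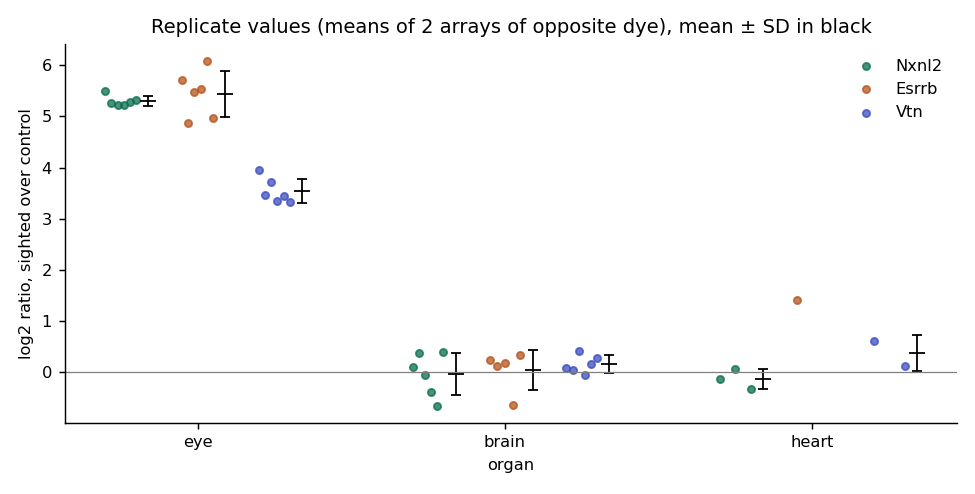
Log2 ratio of sighted over control per replicate for the 3 genes in eye, brain and heart, where each point is the mean of 2 arrays with opposite dyes and the bar is the mean with the SD. The eye replicates lie between 3.32 and 6.08, apart from all brain and heart replicates. The genes were chosen with the eye result known.

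The genes whose ratio across organs was nearest to each of the 3 were mostly photoreceptor genes. Likeness was the root mean square difference in log2 ratio over the replicates a gene shared with the member, and the eye values weigh most in it. Nearest to Nxnl2, over 15 replicates and 6675 genes, were Sag, rod arrestin, at 0.36, Cngb1, the rod channel subunit, at 0.46, and Pcare, a photoreceptor ciliary protein, at 0.76. Nearest to Esrrb, over 12 replicates and 7126 genes, were Nxnl2 at 0.60 and Sag at 0.65. Nearest to Vtn, over 14 replicates and 6852 genes, were Ei24, a protein of the endoplasmic reticulum, at 0.40, and Cplx4, a complexin of ribbon synapses, at 0.43. Unc119, which carries lipid-modified proteins in photoreceptors, followed at 0.55. These genes were picked by their likeness in the same arrays, so nothing is tested by them.

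Of the genes on these arrays, 26.7% of the 15877 tested in eye passed the limma test, 15.8% higher and 10.9% lower in sighted eye, and each list below is read against those shares. With the sign turned the shares would change places. The split also moved with the dye: 6072 genes passed as higher and 508 as lower with sighted RNA in Cy5 alone, against 553 and 3394 with Cy3 alone. The counts in each direction for the rod, cone viability, cornea and blood lists stayed within 1.5 times of those given under every alternative run. Those of the other lists did not with 1 dye alone. Some of them, such as the thioredoxin, cone, lens and pigment epithelium lists, also moved that far under alternatives with both dyes. The median eye ratio over all genes was 0.03. In the thioredoxin fold family, the relatives of Nxnl2 by protein fold, 2 of 19 measured genes passed and both were lower, with a median of 0.01. They were Txnrd3, a thioredoxin reductase, at -0.28, and Prdx1, a peroxiredoxin, at -0.23. These calls were close to the threshold: the count was 0 without replicate 1, 2, 3 or 5, and Prdx1 was also lost without replicate 4. Nxn, nucleoredoxin, was at 0.05 ± 0.22 (SD, n = 6; adjusted limma p 0.729).

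The next list held the genes through which the related factor of Nxnl1 is known to act on cones, with the glycolytic enzymes and lactate carriers. Nxnl1 itself was not named on the array. Of the listed genes, 6 of 11 measured were higher and 1 lower, with a median of 0.42. Hk2, hexokinase 2, rose by 1.78 ± 0.27 (SD, n = 6; adjusted limma p 8.66e-06), the largest of the list. Hk1, hexokinase 1, rose by 1.39 ± 0.10 and Ldha, lactate dehydrogenase A, by 0.71 ± 0.14 (SD, n = 6 each). Pfkm, the muscle-type phosphofructokinase, fell by 0.51 ± 0.16. Bsg, basigin, the surface partner of the factor of Nxnl1, was at 0.06 ± 0.11 (SD, n = 6; adjusted limma p 0.562).

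Of the estrogen-related receptors and their cofactors, 2 of 8 were higher and 1 lower, with a median of 0.24. Ppargc1b and Ppargc1a, the coactivators PGC-1 beta and alpha that work with the receptors, rose by 0.60 ± 0.13 and 0.55 ± 0.19 (SD, n = 6 each). Ncoa3, a nuclear receptor coactivator, fell by 0.48 ± 0.10. Of the receptors of the family, Esrra was at -0.19 ± 0.33 (adjusted limma p 0.266) and Esrrg at 0.31 ± 0.33 (SD, n = 6; adjusted limma p 0.0890), neither of which passed. Each passed without 1 replicate, Esrra without replicate 6 (adjusted p 0.0237) and Esrrg without replicate 2 (0.0134), and Esrra was at 0.54 with Cy5 alone and at -0.93 with Cy3 alone. The count of lower genes was 2 without replicate 6. Esrrg ran from -0.26 to 0.65 across the eye replicates.

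Photoreceptor transcription factors gave 5 of 11 higher and 2 lower, with a median of 0.16. Pias3, a SUMO ligase known to steer rod against cone gene expression, rose by 1.12 ± 0.15, Mef2c, a MADS-box factor, by 0.79 ± 0.27 and Rora, a retinoid-related orphan receptor, by 0.71 ± 0.13 (SD, n = 6 each). Nr2f2, also called COUP-TFII, fell by 0.54 ± 0.27.

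The receptors and binding partners of vitronectin were 1 of 13 higher and 3 lower, with a median of -0.13. Itgav, the alpha V integrin subunit that pairs into vitronectin receptors, rose by 0.53 ± 0.31 (SD, n = 6; adjusted limma p 0.00836). Tgm2, a transglutaminase, fell by 0.76 ± 0.17, Fn1, fibronectin, by 0.50 ± 0.11 and Itgb5, the beta 5 subunit that pairs with Itgav, by 0.27 (n = 6). The call of Itgb5 was lost without replicate 1, 3, 4 or 5, at adjusted p of 0.0797, 0.106, 0.117 and 0.0862.

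Of the genes of outer segment phagocytosis, in which the pigment epithelium takes up shed discs with integrins and their ligands, 2 of 8 were higher and 3 lower, with a median of -0.15. Tub, whose protein binds the phagocytosis receptor MERTK, rose by 2.11 ± 0.32 and Mfge8, a ligand of integrin alpha V beta 5, by 0.47 ± 0.13 (SD, n = 6 each). Anxa2, annexin A2, fell by 0.99 ± 0.36. Among retinal survival and injury factors, 2 of 18 were higher and 6 lower, with a median of -0.17. The count of higher genes was 1 with arrays scaled, with the pair block, and without replicate 1, 3, 4, 5 or 6. Without those replicates Fgf9, a fibroblast growth factor, was lost (adjusted p 0.0963 to 0.122). Il6st, the shared receptor of the CNTF and LIF group, fell by 0.81 ± 0.38 (SD, n = 6) and Cebpd, a stress-induced transcription factor, by 0.73 ± 0.26 (SD, n = 5).

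Lists of cell types were read in the same way. Of 44 listed rod genes 17 were measured. Of these 16 passed, all 16 in 1 direction, with a median of 2.78, and 1, Drd4, did not pass. Their direction is no result, since the sign of the ratio was taken from rod genes. Guca1b, a guanylate cyclase activator, had the largest rod ratio, 6.45 ± 0.20 (SD, n = 6). Of 14 listed cone genes only 2 were measured, and both were higher, Gnb3 at 0.33 and Gngt2 at 0.26. With sighted RNA in Cy3 alone, however, they turned to -0.03 and -0.04. Without replicate 1 or 3 neither cone gene passed, at adjusted p of 0.107 and 0.107 for Gnb3 and 0.116 and 0.11 for Gngt2. Gnb3 was also lost without replicate 5 or 6, at 0.106 and 0.0695, and Gngt2 without replicate 2, 4 or 5, at 0.0817, 0.0994 and 0.0566. Gngt2 was lost with arrays centred on their median (adjusted limma p 0.0553) and Gnb3 with arrays scaled to 1 spread (adjusted limma p 0.0503). With top values kept 1 of the 2 passed.

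Other tissues of the eye moved in both directions. Lens genes were 11 of 12 higher, while 11 of 13 cornea genes, 13 of 14 skeletal muscle genes and 4 of 4 blood genes were lower, with medians of 0.56, -1.01, -0.75 and -1.50. The lens count was 7 without replicate 2, 3, 4 or 6 and 1 with Cy3 alone, and the muscle count was 6 with Cy5 alone. Mueller glia and astroglia gave 1 of 13 higher and 4 lower, and with each probe on its own 2 higher and 6 lower. Of 12 listed genes of the pigment epithelium only 3 were measured, and 1 was higher, Rdh5, a retinol dehydrogenase. Rdh5 was lost without replicate 1, 3, 4, 5 or 6 (adjusted p 0.0729, 0.061, 0.0539, 0.0724 and 0.062) and was at -0.012 with Cy3 alone. The part of these tissues in the ratios of the 3 genes was not tested.

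Vtn lies on chromosome 11 at 78499120 to 78502325 (GRCm38.p6), between Sarm1 and Sebox, 2 genes that were also measured. Sarm1, an enzyme that promotes axon and photoreceptor degeneration by breaking down NAD, was higher in sighted eye by 1.15 ± 0.24 (SD, n = 6), 2.22-fold, in 6 of 6 replicates that ran from 0.834 to 1.477 (adjusted limma p 6.69e-05). Sebox, a homeobox gene, was higher by 0.49 ± 0.21 (adjusted limma p 0.00320), but with sighted RNA in Cy3 alone it was at -0.0043. The gaps between the genes were 1303 bases on the Sarm1 side and 1187 bases on the Sebox side. The next genes out, Slc46a1 and Tmem199, were at -0.03 ± 0.18 and -0.02 ± 0.10 and did not pass. Of the neighbours of Nxnl2, on chromosome 13 at 51168706 to 51175191, Spin1 was measured, at -0.18 ± 0.19 (SD, n = 6; adjusted limma p 0.131, and 0.0385 with every array centred on its median). No direct neighbour of Esrrb, on chromosome 12 at 86361117 to 86521628, was named on the array.

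**Figure D3:**
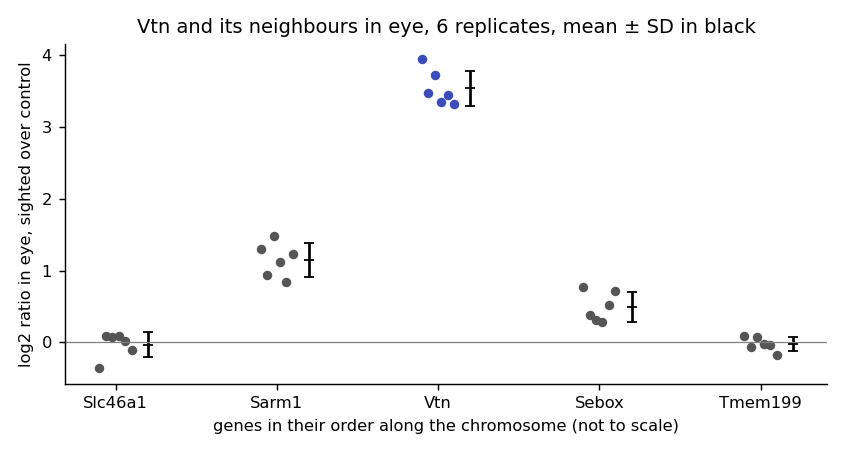
Eye log2 ratio of sighted over control per replicate for Vtn and the 2 genes on each side of it, in RefSeq order, with the mean and SD. Vtn is at 3.54, Sarm1 at 1.15 and Sebox at 0.49, while the outer genes lie near 0.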

How the data were processed

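Total RNA of eye, brain and heart was reverse transcribed, labelled indirectly with Cy3 or Cy5 and hybridised in pairs, per the labels' protocols. The deposited values are log2 ratios of the channels, likely Cy5 over Cy3. For the scanner, the background step and the normalization, no label or header names a method. The base of the log was read from the top value of the eye arrays, and 4170 repeated top values above 15 were set to missing, besides 5.88% missing as deposited. Array medians lay between -0.055 and 0.539 in eye, so centring is not uniform. Both channels of brain array 3 are labelled Cy5, and the sighted RNA was taken to be the Cy5 one.

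The sign was changed where Cy3 marked the sighted RNA, probes of a gene averaged, and consecutive arrays of opposite dye averaged to a replicate. The direction in brain and heart rests on the dye component, whose Spearman correlation across 16737 genes was 0.283 for eye with brain and 0.225 for eye with heart. For every organ limma 3.58.1 (R 4.3.3) compared the replicate mean with 0 in a two-sided test, with Benjamini-Hochberg adjustment over all genes at 0.05, and a gene could miss 1 replicate. The script was tested on simulated data. Of 20794 probes, 12771 carried 1 symbol, 0 several and 8023 none.

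The 3 genes and the gene lists were chosen with earlier results of these data known. Genes to name were the 3 members, up to 5 genes by likeness, up to 3 passing genes per list with the largest ratio, relatives in the same protein family, and 2 neighbours on each side in RefSeq order. The lists tied to the 3 genes and the rod and cone lists could give further genes as well. Alternatives were single arrays with a dye term and a pair block (statmod 1.5.0), arrays centred or scaled, and other rules for missing and top values. Further ones were single probes, 1 dye only, and each replicate left out.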

Additional observations from a re-analysis of the deposited data

Results flagged for a closer look

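Esrrb in brain replicate 4 read -0.642, against 0.12 to 0.34 in the other 4 replicates with a value. Its gap to the nearest replicate was 0.776 of the whole range, above the critical value of 0.71 for 5 replicates. Both arrays of replicate 4 were below 0. Replicate 5 was not part of this check, because 1 of its arrays had no value, and its other array read -2.60. In all, 6 groups of replicates were checked for the 3 genes, and chance alone sets apart about 1 in 20 such groups.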

How the results depend on the processing

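The eye ratios of Nxnl2, Esrrb and Vtn stayed above 0 under every alternative run. With 1 dye orientation alone Nxnl2 was at 5.12 (Cy3) and 5.48 (Cy5), and Vtn at 2.98 and 4.10. In brain no alternative called a member, and the lowest adjusted limma p was 0.361, for Vtn. Vtn stayed above 0 in brain under every alternative run, while Esrrb and Nxnl2 turned in sign. Esrrb turned to -0.19 with every array on its own and the pair as a random block, to -0.28 with Cy3 alone and to -0.098 with Cy5 alone, and ran from -0.029 to 0.22 with 1 replicate left out. Nxnl2 in brain turned to 0.12 with Cy3 alone and ran from -0.13 to 0.082 with 1 replicate left out. In heart Nxnl2 turned to 0.24 with Cy3 alone, and Vtn was at -0.025 with Cy5 alone and at 0.11 and 0.61 with 1 replicate left out. With every array on its own and the pair as a random block, Vtn in heart was at 0.10. The cause was not tested. Esrrb in heart rests on 1 replicate, and no alternative was computed; in brain it has no value when every replicate is required.

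Genes passing in eye were 6580 with Cy5 alone (6072 higher, 508 lower), 3947 with Cy3 alone (553 higher, 3394 lower), and 3256 to 4167 with 1 replicate left out. In brain 1 passed; 2 passed with a value in every replicate, 2 with arrays scaled, 0 with top values kept, 6 with every array and the pair block, 1327 with Cy3 alone and 736 with Cy5 alone. With 1 brain replicate left out the count was 0 to 1, and 0 without replicate 1, 2, 4 or 6. Of the 225 list counts under an alternative, 191 were within 1.5 times of the first. Single dye orientations leave the dye effect in the ratio.

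Brain and heart share array numbers. Same-numbered replicates had correlations of their deviations from -0.021 to -0.003. The 2 arrays averaged to 1 replicate also correlated only at a mean of 0.006 in brain and -0.042 in heart. Such a check therefore cannot tell whether the numbers pair the samples. With the number as a replicate block, the brain minus heart difference of Nxnl2 was 0.26 (adjusted limma p 0.7). Without a block and with 1 replicate left out it ran from -0.0075 to 0.21, and the genes passing ran from 0 to 184, with 184 without heart replicate 1, 3 without replicate 2, 3 without replicate 3 and 9 without replicate 4. Missing heart values limit Esrrb and Vtn most.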

Other observations

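In order of eye ratio, 4 probes that carry no symbol here exceeded Vtn. The highest, probe 19035, had an eye ratio of 5.95 ± 0.25 (SD, n = 6), above all 3 genes, and a brain ratio of -0.07 ± 0.18 (SD, n = 6). Probe 14592 had 4.51 ± 0.16 in eye and 0.06 ± 0.19 in brain (SD, n = 6 each). They were chosen after their values were seen.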
